A study of Homo sapiens with 16 samples.

Results

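Antisense genes are taken here as those whose symbols end in -AS and a number, named after the gene they lie opposite to or start beside, and most are long noncoding RNAs. In P493-6 cells, 267 such genes averaged 10 or more normalised reads over all 16 libraries, out of 1809 rows with such a symbol, of which 964 were above 0 in some library. They are 267 of the 13765 genes that passed this mean and entered the tests. The mean therefore chose the members and is given here as a description. The 3 genes next inside the limit were CBLL1-AS1 at 10.1, PYCARD-AS1 at 10.3 and STPG3-AS1 at 10.4, and the 3 rows next outside were DLGAP1-AS2 at 9.90, ZNF566-AS1 at 9.82 and ENTPD3-AS1 at 9.61. Of the 267 genes, 71 had a mean under 20 and 59 a mean of at least 100, the median was 41.4, and 266 were above 0 in every library. By annotated type, 1 of them is protein-coding (KRT10-AS1) and 3 are transcribed pseudogenes (EMC3-AS1, SVIL-AS1 and TP73-AS1), so the symbol does not hold noncoding RNAs alone.

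The study measured RNA in P493-6, an Epstein-Barr virus-immortalised human B cell line with a MYC transgene that doxycycline represses and an EBNA2 protein that oestrogen activates. For high MYC the culture medium was plain DMEM. For medium MYC it also held doxycycline (0.1 µg/mL) and beta-estradiol (1 µM) during the 24 h before the experiment. IMP1088 (100 nM), which blocks the enzymes that attach myristate to proteins, NMT1 and NMT2, was then given for 24 h and compared with DMSO, in 4 groups of 4 libraries. The additives set the MYC level, so MYC, doxycycline and estradiol cannot be told apart in this design. Every group comes from the same line, and nothing in the labels says that replicates were separate cultures, so p-values measure the spread between these libraries only.

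Many antisense RNAs begin at the promoter of their sense gene and are transcribed away from it, because open promoters often fire in both directions. Others start inside or beyond the sense gene and run through its exons on the other strand. Such transcripts are usually scarce and short-lived, being trimmed by the nuclear exosome, and a few act on their sense gene or in trans. MYC binds the E-box CACGTG at the promoters of active genes, and EBNA2 reaches DNA through RBPJ, a factor that recognises TGGGAA.

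Library depth ran from 8755296 to 13858534 reads, and replicates of a group correlated over all tested genes at r = 0.985 to 0.99. MYC averaged 31649 ± 2130 (SD, n = 4) in the high-MYC controls and 959 ± 48.7 in the medium-MYC controls, and 47542 ± 505 and 1382 ± 51.2 under IMP1088. NMT1 and NMT2, the enzymes the compound blocks, were not called between IMP1088 and DMSO at either level. Between the controls both were called higher at medium MYC on the log2 scale, NMT1 by 0.20 and NMT2 by 2.08. NMT2 averaged 2.79 in the high-MYC controls and 14.6 in the medium-MYC controls. All 6 B cell markers looked up were present, and their summed level ran from 23820 to 24000 in the high-MYC controls, 19240 to 20210 under IMP1088 there, 38770 to 39480 in the medium-MYC controls and 34130 to 35360 under IMP1088 there. Of 11 markers of T, myeloid, epithelial and fibroblast cells, 4 passed the mean of 10, KRT18 was at 0 in every library, and the collagen gene COL1A1 averaged 7.09 in the high-MYC controls and 164 in the medium-MYC controls. In a bulk sample fewer cells of a type and less RNA per cell cannot be told apart.

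By GENCODE 29 on GRCh38, 120 of the 267 genes overlapped their sense gene at the start ends of both, 61 overlapped it at the tail ends, 44 lay inside it, 23 ran around it and 17 were divergent with bodies apart. For the other 2 the sense loci, TRD and TRG, had no row to match. The start lay within 1 kb of the sense start in 97 genes and further away in 168. Exon bases were shared with some other gene on either strand in 232 genes, and 35 shared none. How the authors' counting used strand is not given in the sources used here, so reads from such a gene and its sense partner cannot be told apart where exons are shared, and these 232 genes are uncertain to that extent.

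Promoter sequences of 205 of the 267 genes were matched in RefSeq on GRCh38.p14, taking 250 bases before and 50 after the start. The E-box CACGTG, which reads the same on either strand, was found in 20 of the 205 (9.76%) and in 7.26% of all 35116 promoters in the table. Among genes lower at medium MYC it was found in 9 of 66 (13.6%), among genes higher in 3 of 56 (5.36%) and among genes not called in 8 of 83 (9.64%). The RBPJ core TGGGAA, searched on both strands, was found in 42 of the 205 (20.5%) and in 24% of all promoters, with 16 of 66, 11 of 56 and 15 of 83 in the same order. A match describes the letters in this window and shows no binding.

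Of the 9 genes with an E-box that were lower at medium MYC, 4 promoters are shown, with the E-box in capitals. They are that of the most abundant gene (OIP5-AS1), those of a pair of near-copies (NUTM2A-AS1 and NUTM2B-AS1) and 1 that also holds the sense start (SBNO1-AS1), and they were chosen after their values were seen. OIP5-AS1 lies at chr15:41283740-41284039 (plus strand) with the E-box at -240 from the start. NUTM2A-AS1 lies at chr10:87342509-87342808 (minus strand) with it at -96, and NUTM2B-AS1 at chr10:79826545-79826844 (minus strand) with it at -19. SBNO1-AS1 lies at chr12:123364698-123364997 (plus strand) with it at -25. All 4 read from 5′ to 3′ on the strand of the gene.
OIP5-AS1: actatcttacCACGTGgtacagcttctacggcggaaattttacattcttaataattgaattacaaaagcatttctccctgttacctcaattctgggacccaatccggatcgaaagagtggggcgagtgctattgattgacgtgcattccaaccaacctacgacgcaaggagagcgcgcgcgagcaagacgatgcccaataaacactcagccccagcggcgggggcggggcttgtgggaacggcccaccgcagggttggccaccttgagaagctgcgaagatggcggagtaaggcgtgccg
NUTM2A-AS1: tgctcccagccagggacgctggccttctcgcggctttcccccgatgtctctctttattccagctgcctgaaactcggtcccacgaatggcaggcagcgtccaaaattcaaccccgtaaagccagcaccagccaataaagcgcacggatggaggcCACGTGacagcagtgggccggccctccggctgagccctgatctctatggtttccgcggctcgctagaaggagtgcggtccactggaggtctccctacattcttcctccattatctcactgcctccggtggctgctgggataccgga
NUTM2B-AS1: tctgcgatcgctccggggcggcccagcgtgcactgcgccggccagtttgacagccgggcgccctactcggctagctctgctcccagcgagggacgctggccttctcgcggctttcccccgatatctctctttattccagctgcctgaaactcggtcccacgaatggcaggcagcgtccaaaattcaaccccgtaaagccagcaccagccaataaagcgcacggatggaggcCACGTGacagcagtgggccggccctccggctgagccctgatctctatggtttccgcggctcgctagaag
SBNO1-AS1: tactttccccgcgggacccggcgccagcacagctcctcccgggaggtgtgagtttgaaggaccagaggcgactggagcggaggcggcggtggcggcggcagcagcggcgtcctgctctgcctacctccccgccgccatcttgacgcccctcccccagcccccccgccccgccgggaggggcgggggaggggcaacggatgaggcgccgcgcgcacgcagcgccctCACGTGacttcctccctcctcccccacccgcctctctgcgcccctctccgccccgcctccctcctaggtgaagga
A long stretch is the same in the NUTM2A-AS1 and NUTM2B-AS1 windows, and within these windows it lies before the NUTM2A-AS1 start. The exons of these 2 genes were not compared. Whether the authors' counting split reads between them was not tested.

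In 38 of the 179 pairs where both genes had a RefSeq start, the sense start fell inside the window of its antisense gene. Both genes were called between MYC levels in the controls in 16 of the 38, in the same direction in 10 and in opposite directions in 6. Of all tested genes 76.2% were called there, 38.9% higher and 37.3% lower. Whether the split of these pairs differs from that of unrelated genes was not tested. Windows of 2 of the 6 are shown, in which the antisense and sense genes moved in opposite directions between MYC levels from RefSeq starts 69 bases (ZNF674-AS1 and ZNF674) and 83 bases (STX18-AS1 and STX18) apart. Capitals mark the stretch from one start to the other, both included. The ZNF674-AS1 window is chrX:46545240-46545539 and the STX18-AS1 window chr4:4541881-4542180, both on the plus strand.
ZNF674-AS1: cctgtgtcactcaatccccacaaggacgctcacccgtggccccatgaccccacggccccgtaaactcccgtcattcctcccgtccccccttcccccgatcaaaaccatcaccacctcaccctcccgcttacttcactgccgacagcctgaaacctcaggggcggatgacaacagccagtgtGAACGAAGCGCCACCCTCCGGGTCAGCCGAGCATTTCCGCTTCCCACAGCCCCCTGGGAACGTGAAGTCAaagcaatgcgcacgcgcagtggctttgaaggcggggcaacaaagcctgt
STX18-AS1: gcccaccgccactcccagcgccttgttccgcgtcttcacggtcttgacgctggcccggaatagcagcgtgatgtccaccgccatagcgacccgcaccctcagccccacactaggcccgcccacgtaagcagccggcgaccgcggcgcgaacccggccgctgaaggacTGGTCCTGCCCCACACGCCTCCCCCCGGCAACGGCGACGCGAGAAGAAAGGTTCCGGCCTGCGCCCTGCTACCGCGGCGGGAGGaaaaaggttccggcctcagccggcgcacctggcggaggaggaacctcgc

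Levels spanned from 10.1 to 2954 normalised counts, and the most abundant gene was OIP5-AS1, the conserved RNA also called Cyrano. OIP5-AS1 measured 3556, 3881, 3981 and 3880 in the high-MYC controls and 2344, 2412, 2234 and 2489 in the medium-MYC controls. It fell by 0.69 on the log2 scale at medium MYC (SE 0.04, limma adjusted p = 8.92e-14) with no overlap, while its sense gene OIP5, a centromere factor, averaged 98.7 and 107 and was not called. GABPB1-AS1 followed, at 2737, 2690, 2626 and 2880 in the high-MYC controls and 1195, 1188, 1251 and 1201 in the medium-MYC controls. It fell by 1.18 (SE 0.03, limma adjusted p = 2.31e-18), and GABPB1, a subunit of the transcription factor GABP, was higher by 0.46.

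The other 8 most abundant genes had means from 404 to 844. FGD5-AS1 averaged 638 ± 35.5 (SD, n = 4) in the high-MYC controls and 1039 ± 41.1 in the medium-MYC controls, with FGD5 itself above 0 in a single group. TTN-AS1 averaged 405 and 741 in the same groups, and 11381 of its exon bases are shared with TTN, the titin gene, which averaged 3533 and 2216. PSMA3-AS1 was higher by 0.29 at medium MYC, PAX8-AS1 fell by 0.26, THAP9-AS1 fell by 0.39 and GAS6-AS1 was not called. Per kilobase of exon, 33 of 226 antisense genes with a tested sense gene stood above it, and the median ratio of antisense to sense was 0.198. The remaining 41 genes had a sense gene under the mean of 10 or none in the annotation, among them FGD5-AS1 and EPB41L4A-AS1.

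Medium MYC was compared with high MYC among the DMSO controls by limma on log2 of the value plus 1, with Benjamini-Hochberg adjustment over all 13765 genes and a call at an adjusted p-value under 0.05. Of the 267 antisense genes 165 were called, 80 higher and 85 lower, which is 61.8% beside 76.2% of all tested genes. Their median change was -0.02 and that of all genes was 0.02. With quantile normalisation the split of called genes became 57 higher and 114 lower. Changes of at least 2-fold were called for 33 higher and 35 lower genes, and for 24% of all tested genes. The groups did not overlap in 137 genes, beside 69.2% of all genes. A gene can pass the mean of 10 through a single group, and 57 of the 267 had a group mean under 10, so these counts describe the members and support nothing further. Among the 210 genes that averaged 10 or more in each group, 55 were higher and 68 lower.

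Among called genes averaging 20 or more, with no overlap, the largest increases at medium MYC were in antisense genes near silence at high MYC. SORL1-AS1, STARD4-AS1, TRD-AS1 and HORMAD2-AS1 had 11, 27, 20 and 18 reads over the 4 high-MYC controls. They passed the mean of 20 only through the medium-MYC libraries, so a large increase was built into their selection. Their p-values support nothing further. SORL1-AS1, which starts 810 bases from the sorting receptor gene SORL1 and shares no exon base with it, measured 1.51, 1.12, 7.73 and 1.12 in the high-MYC controls and 64.7, 56.5, 61.3 and 53.3 in the medium-MYC controls. Only 11 reads in all lie behind the high-MYC controls, 7 of them in 1 library, and the change was 4.25 (SE 0.38, limma adjusted p = 1.23e-09), or 2.45 with a pseudocount of 10. SORL1 averaged 1522 and 5592 and was higher by 1.88. STARD4-AS1, beside a cholesterol transfer gene, measured 6.78, 5.62, 6.62 and 7.82 against 103, 111, 80.5 and 100, a change of 3.69 (SE 0.26, limma adjusted p = 2.34e-11). STARD4 was higher by 2.43. In both of these pairs the 4 libraries of one level lay wholly above those of the other. STARD4-AS1 shares exon bases with STARD4, so their reads cannot be told apart there.

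TNFRSF14-AS1, opposite the lymphocyte receptor gene TNFRSF14, measured 9.04, 11.2, 16.6 and 8.94 at high MYC and 140, 138, 170 and 162 at medium MYC. Its change was 3.66 (SE 0.20, limma adjusted p = 3.74e-13), and TNFRSF14 was higher by 2.60. ITGB2-AS1 lies inside ITGB2, the beta-2 integrin gene of leukocytes. It measured 22.6, 18, 17.7 and 13.4 against 108, 86.5, 101 and 98.5, a change of 2.41 (SE 0.20, limma adjusted p = 5.18e-10) beside 1.37 for ITGB2. TRD-AS1, from the T cell receptor delta locus, averaged 4.93 ± 1.37 (SD, n = 4) and 105 ± 3.61 and was higher by 4.19. HORMAD2-AS1 was higher by 3.08 (1.89 with a pseudocount of 10), BCAN-AS1 by 2.13 and BCAN-AS2 by 2.0, and their sense genes HORMAD2, a meiosis gene, and BCAN, the brevican gene of brain, did not pass the mean of 10. The T cell marker CD3E averaged 37.3 and 59.6 in the same groups as TRD-AS1 and CD3D 0.468 and 1.27. The 3 T cell markers summed to 34.65 to 44.44 and 52.15 to 77.89, 1 of 3 passed the mean of 10, and their part in its level was not tested.

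By the same rule the largest decreases at medium MYC were in USP2-AS1 and DDN-AS1. With 21 reads over the 4 medium-MYC controls, USP2-AS1 passed the mean only through the high-MYC libraries. USP2-AS1 starts 52 bases from USP2, a ubiquitin protease gene, and measured 90.4, 71.9, 80.6 and 90.5 in the high-MYC controls and 4.17, 4.28, 7 and 3.28 in the medium-MYC controls. It fell by 3.92 (SE 0.30, limma adjusted p = 1.21e-10), and USP2 fell by 1.49. DDN-AS1 measured 275, 274, 254 and 287 against 22.9, 36.8, 37.6 and 32.8 and fell by 3.05 (SE 0.13, limma adjusted p = 4.09e-15). Its sense gene DDN, encoding dendrin, fell by 4.58, from 638 ± 56.9 to 25.8 ± 3.30 (SD, n = 4). In both pairs antisense and sense were low together, with no overlap between levels. USP2-AS1 shares no exon base with USP2. DDN-AS1 shares exon bases with DDN, so their reads cannot be told apart there.

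VPS9D1-AS1 and PARD6G-AS1 fell while their sense genes were higher. VPS9D1-AS1, also known as MYU for its induction by MYC, measured 236, 204, 221 and 211 in the high-MYC controls and 60.5, 47.1, 53.4 and 47.6 in the medium-MYC controls. It fell by 2.05 (SE 0.12, limma adjusted p = 5.01e-13), while VPS9D1 was higher by 2.28, from 11.8 ± 4.09 to 60.1 ± 11.0 (SD, n = 4). PARD6G-AS1 shares no exon base with another gene and measured 90.4, 80.9, 93.8 and 71.5 against 22.9, 12.8, 19.3 and 21.3, a fall of 2.11 (SE 0.27, limma adjusted p = 3.92e-07). PARD6G, a cell polarity gene, had 0 reads in all 4 high-MYC controls and 107 in the medium-MYC controls, at least 32-fold higher against a floor of 3 reads over the group. DBH-AS1 fell by 2.27, EPB41L4A-AS1, host of a small nucleolar RNA, by 1.98, C10orf95-AS1 by 1.92 and KTN1-AS1 by 1.76, and KTN1 was not called. DBH was listed at 0 throughout, EPB41L4A averaged 0.951 over all libraries, and C10orf95, too low to be tested, averaged 10.5 ± 3.47 (SD, n = 4) in the high-MYC controls and 0.894 ± 0.706 in the medium-MYC controls, lower beside its antisense gene.

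**Figure D1:**
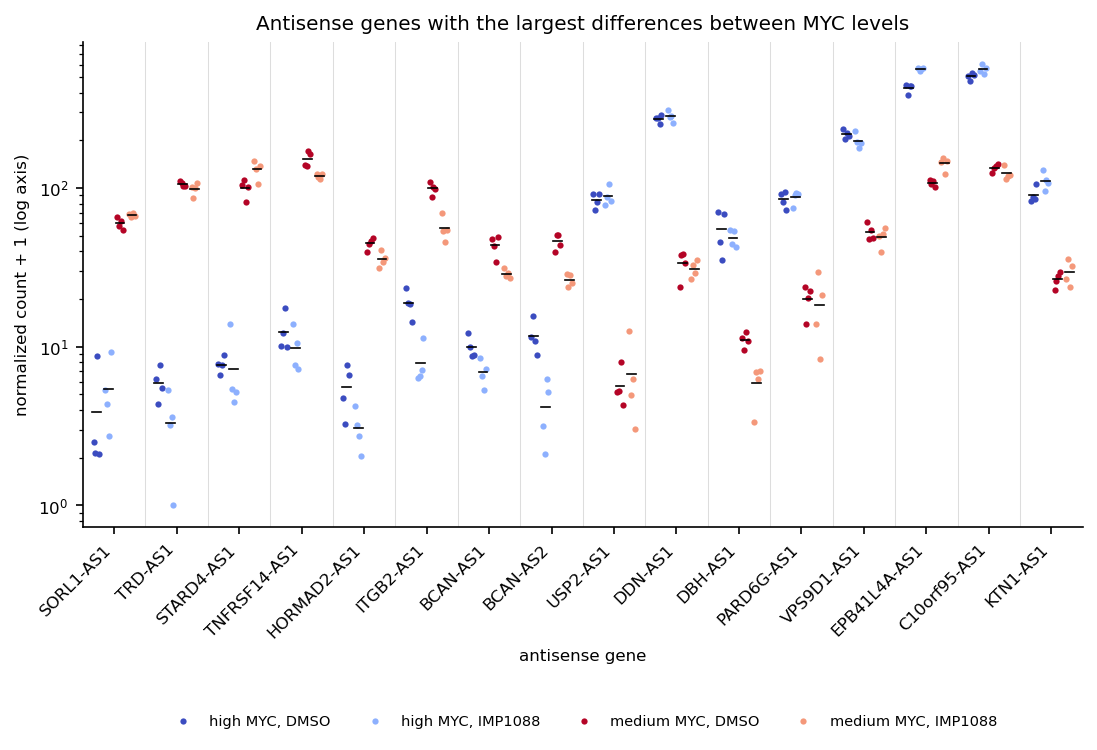
Normalised counts plus 1 (log axis) of the 16 antisense genes with the largest called differences between MYC levels (mean 20 or more, no overlap); each point is 1 library, each short bar the mean of 4, and colours mark the 4 groups. The first 8 genes sit higher at medium MYC and the last 8 lower, with SORL1-AS1 at 1.12 to 7.73 counts in the high-MYC controls and 53.3 to 64.7 in the medium-MYC controls.

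Antisense and sense changes between MYC levels were set side by side in 226 pairs. Both genes were called in 114 pairs, in 72 of them in the same direction (37 higher, 35 lower) and in 42 in opposite directions. Of all tested genes 38.9% were called higher and 37.3% lower. Of the 94 pairs whose starts lie within 1 kb, 51 had both genes called, 39 in the same direction and 12 in opposite directions. Of the 132 pairs with starts further apart, 63 had both called, 33 in the same and 30 in opposite directions. Across the 94 close pairs the 2 changes correlated at Pearson r = 0.640 and Spearman rho = 0.477, and r was 0.548 without DDN-AS1 and STARD4-AS1, the pairs with the most extreme sense changes. Across the 132 others r was -0.017 and rho 0.057. These correlations are over pairs and describe the fit; the 2 genes of a pair share the same libraries and may share reads.

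Shared exon bases varied between the pairs. Over all distances r was 0.296 in the 189 pairs that share exon bases and 0.1 in the 37 pairs that share none. In the 18 close pairs with none, r was 0.623, with SORL1-AS1, USP2-AS1 and ACVR2B-AS1 among them. In the 36 close pairs with both means of at least 50, r was 0.720, and 0.439 without DDN-AS1 and STARD4-AS1. By distance, r was 0.308 in 27 pairs with starts within 250 bases, 0.728 in 67 pairs above that to 1000 bases, 0.647 in 34 pairs to 5000 bases, -0.094 in 53 pairs to 50000 bases and -0.275 in 45 pairs beyond. With the starts taken from RefSeq instead, r was 0.609 in 92 pairs within 1 kb and -0.166 in 67 pairs further apart. Annotation matters for single pairs: KTN1-AS1 starts 21038 bases from KTN1 in GENCODE and 115 bases from it in RefSeq.

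Close pairs that moved together included RASSF8-AS1 (1.81, with RASSF8 at 1.47) and MALT1-AS1 (1.14, with MALT1, a paracaspase gene of B cell signalling, at 1.96). With a pseudocount of 10 the change of MALT1-AS1 was 0.75. SLC16A1-AS1 fell by 1.31 and SLC16A1, the lactate transporter gene, by 1.68. TMEM147-AS1 fell by 1.34 and TMEM147 by 1.64, and TAPT1-AS1 fell by 1.46 and TAPT1 by 1.65. Close pairs that moved apart included PSMG3-AS1, higher by 1.77 while PSMG3, a proteasome assembly gene, fell by 0.65. STX18-AS1 fell by 1.30 while STX18 was higher by 0.23, and ZNF674-AS1 fell by 0.74 while ZNF674, a zinc finger gene, was higher by 1.11. Of the pairs in this paragraph, those not picked by size of change were chosen after their values were seen.

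**Figure D2:**
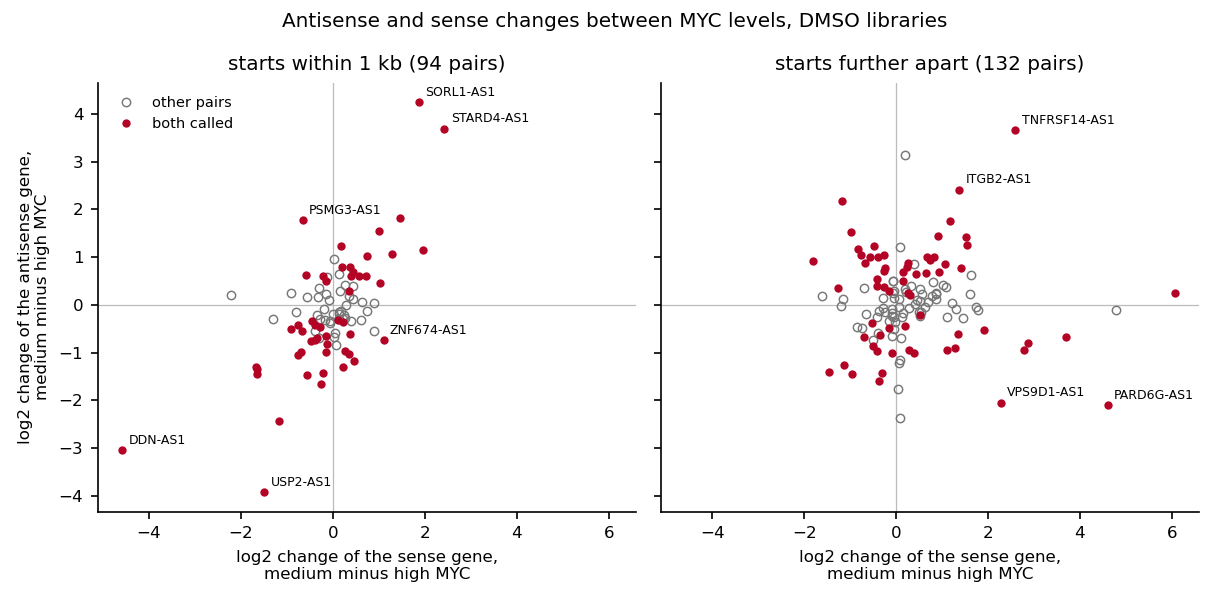
Log2 change of each antisense gene (vertical) against that of its sense gene (horizontal), medium minus high MYC in the DMSO libraries, for 94 pairs with starts within 1 kb (left) and 132 pairs further apart (right); filled points are pairs with both genes called. The left panel runs along the diagonal (r = 0.640), the right one does not (r = -0.017); the position of PARD6G-AS1 on the horizontal axis depends on the pseudocount.

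The response to IMP1088 was compared with DMSO at high MYC. Of the 267 antisense genes 66 were called, 48 higher and 18 lower, which is 24.7% beside 26.8% of all tested genes. Among all genes 10.5% were called higher and 16.3% lower. The median change of the antisense genes was 0.09 and that of all genes -0.02, and 65 antisense genes had no overlap between the groups, beside 26.7% of all genes. By at least 2-fold 7 rose and 4 fell, together 4.12% of the antisense genes beside 1.56% of all genes. Of these, 4 that rose and 1 that fell had a mean under 20. A mean of at least 100 was held by 59 of the 267 antisense genes and 9604 of the 13765 tested genes. Of those 59 antisense genes, 0 rose and 0 fell by at least 2-fold. As shares, 18% of the antisense genes were called higher and 6.74% lower. Of the 224 tested sense genes 25 were called higher and 51 lower (11.2% and 22.8%), beside 10.5% and 16.3% of all tested genes. Both genes were called in 15 of 226 pairs, in the same direction in 10 and in opposite directions in 5.

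Of the genes averaging 20 or more with no overlap, MBNL1-AS1 had the largest increase. MBNL1-AS1, inside the splicing regulator gene MBNL1, measured 32.4, 21.3, 37.5 and 17.9 in DMSO and 69.9, 73.2, 73.3 and 86.3 in IMP1088. It rose by 1.49 (SE 0.20, limma adjusted p = 7.14e-06), and MBNL1 fell by 0.16. HEXA-AS1, which starts 363 bases from the lysosomal enzyme gene HEXA, measured 21.8, 19.1, 24.3 and 20.1 against 43, 47.7, 46.3 and 42.6. It rose by 1.04 (SE 0.20, limma adjusted p = 0.00041), and HEXA was not called. GOLGA4-AS1 rose by 1.05 and GOLGA4, a golgin gene, by 0.36.

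DUT-AS1, beside the dUTPase gene DUT, measured 65.5, 59.5, 64 and 70.4 in DMSO and 106, 125, 105 and 124 in IMP1088. It rose by 0.81 (SE 0.14, limma adjusted p = 0.000147) with DUT at 0.01 and not called. ADAMTSL4-AS1 rose by 0.84, TMEM202-AS1 by 0.83, SREBF2-AS1 by 0.79 and HERPUD2-AS1 by 0.77. SREBF2, the sterol regulator gene, fell by 0.17, HERPUD2 was not called, and ADAMTSL4 and TMEM202 did not pass the mean of 10.

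Of the same genes, the largest fall was in BCAN-AS2, at 10.5, 14.6, 9.93 and 7.82 in DMSO and 2.15, 1.11, 5.24 and 4.16 in IMP1088. It fell by 1.59 (SE 0.29, limma adjusted p = 0.000245), or by 0.66 with a pseudocount of 10, on 43 and 13 reads in all. ITGB2-AS1 fell by 1.29 (SE 0.20, limma adjusted p = 6.03e-05), from 22.6, 18, 17.7 and 13.4 to 5.38, 5.55, 6.11 and 10.4, and by 0.73 with a pseudocount of 10. ITGB2 fell with it by 0.94, from 252 ± 28.3 to 130 ± 2.74 (SD, n = 4). PCED1B-AS1 fell by 0.75 and PCED1B by 0.61, so these 2 pairs moved together.

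SYT9-AS1 fell by 0.95 with SYT9, a synaptotagmin gene, at or near 0. IRF1-AS1 measured 142, 118, 121 and 156 in DMSO and 114, 86.5, 98.6 and 102 in IMP1088. It fell by 0.42 (SE 0.10, limma adjusted p = 0.00244), while IRF1, the interferon regulatory factor gene, rose by 0.21. C1RL-AS1 fell by 0.38 with C1RL at -0.44, and SLC9A3-AS1 by 0.35 with SLC9A3 near 0.

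**Figure D3:**
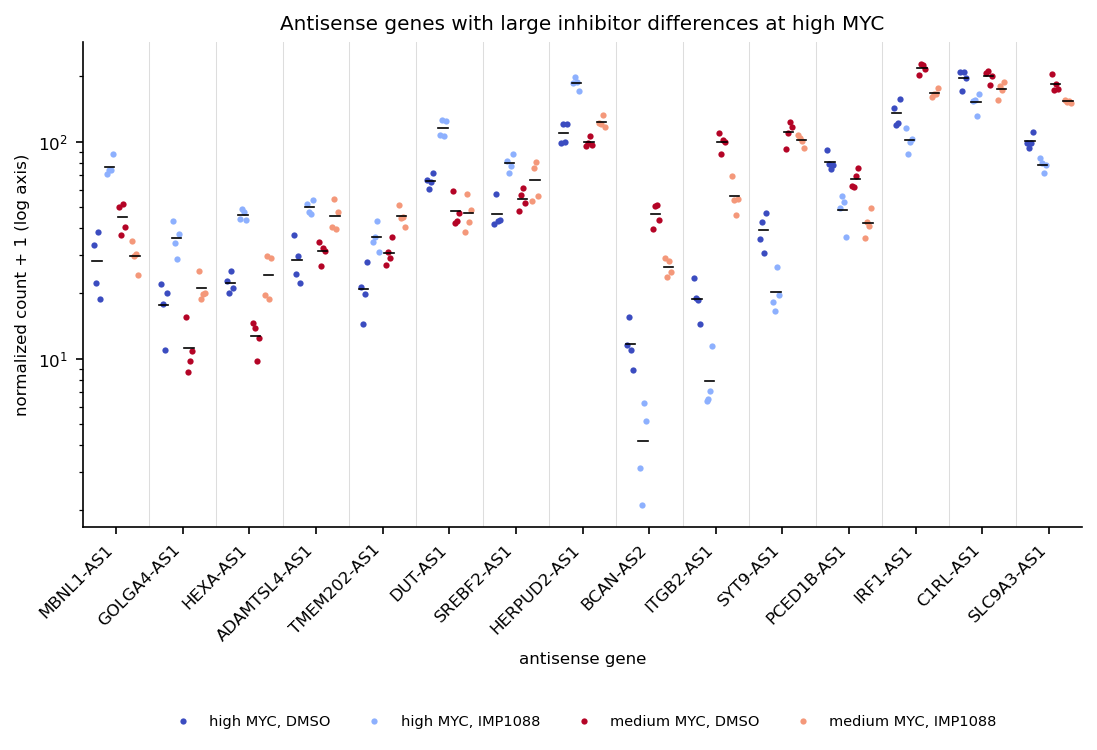
Normalised counts plus 1 (log axis) of 15 antisense genes with large called differences between IMP1088 and DMSO at high MYC (mean 20 or more, no overlap); each point is 1 library, each short bar the mean of 4, and colours mark the 4 groups. The first 8 genes sit higher in IMP1088 at high MYC, as MBNL1-AS1 at 69.9 to 86.3 against 17.9 to 37.5, and the last 7 lower, as ITGB2-AS1 at 5.38 to 10.4 against 13.4 to 22.6.

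The position of the start was set beside the response at high MYC. Of the 97 antisense genes starting within 1 kb of the sense start, 23 were called higher and 5 lower, with a median change of 0.23. Of the 168 starting further away, 25 were higher and 12 lower, with a median of 0.03. As shares these are 23.7% and 5.15% of the close genes and 14.9% and 7.14% of the others. Of all tested genes 10.5% were higher and 16.3% lower. By distance the median was 0.27 in 28 genes within 250 bases, 0.21 in 69 genes to 1000 bases, 0.14 in 40 genes to 5000 bases, -0.001 in 71 genes to 50000 bases and 0.02 in 57 genes beyond. The 35 genes that share no exon base with any gene held 7 called higher and 0 called lower, with 10 of the 35 at an unadjusted p under 0.05 in limma. That is 20% called, beside 26.8% of all tested genes. The difference between the distance groups was not tested.

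**Figure D4:**
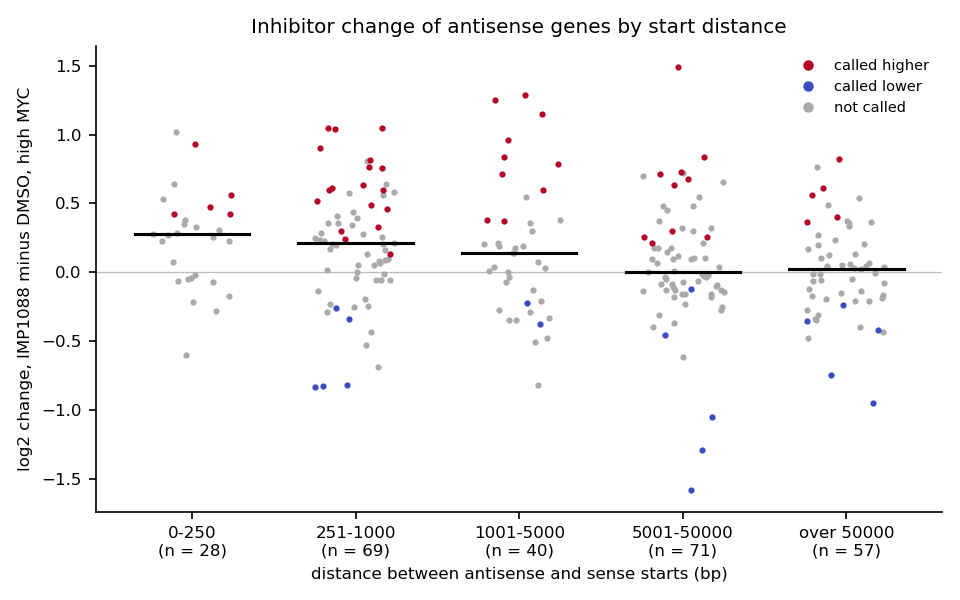
Log2 change of each antisense gene between IMP1088 and DMSO at high MYC, grouped by the distance between antisense and sense starts; each point is 1 gene, coloured by its call, and each bar is the median of the group. The median runs from 0.27 within 250 bases to 0.02 beyond 50000 bases.

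At medium MYC, IMP1088 changed fewer antisense genes. Of the 267, 41 were called, 23 higher and 18 lower, which is 15.4% beside 26.3% of all tested genes. Scaling to equal library totals gave 26 higher and 13 lower. The median change was 0.05 and that of all genes -0.01, 47 genes had no overlap, beside 27.9% of all genes, and 0 genes rose and 2 fell by at least 2-fold, beside 0.886% of all genes. Among starts within 1 kb 14 were higher and 2 lower (14.4% and 2.06%), and further away 9 were higher and 16 lower (5.36% and 9.52%). Of all tested genes 11.7% were higher and 14.6% lower. The difference by distance was not tested. Whether the number called differs between the MYC levels was not tested.

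HEXA-AS1 rose at medium MYC as well, from 13.6, 12.8, 8.75 and 11.5 to 18.6, 28.8, 17.8 and 28.2, a change of 0.93 (SE 0.20, limma adjusted p = 0.00116) or 0.61 with a pseudocount of 10. GOLGA4-AS1 rose by 0.93, or 0.58 with that pseudocount. ZNF674-AS1 rose from 33.4, 39.4, 29.8 and 35.3 to 59.4, 52.6, 55.4 and 53.4, by 0.67 (SE 0.12, limma adjusted p = 0.000283), while ZNF674 was not called. PIK3CD-AS1, inside the gene of the leukocyte PI3K delta subunit, rose from 77.2, 77.1, 91.9 and 76.3 to 127, 124, 111 and 122. Its change was 0.58 (SE 0.13, limma adjusted p = 0.00198), and PIK3CD was not called. INTS6-AS1, beside an Integrator subunit gene, rose by 0.66 with INTS6 not called.

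ITGB2-AS1 fell at medium MYC too, from 108, 86.5, 101 and 98.5 to 68.7, 52.6, 44.9 and 53.4, by 0.84 (SE 0.20, limma adjusted p = 0.00355), and ITGB2 fell by 0.81. PCED1B-AS1 fell by 0.68 with PCED1B at -0.57. SNAI3-AS1 fell by 0.71 and MCM3AP-AS1 by 0.48, with SNAI3 and MCM3AP not called. DBH-AS1 fell by 0.96, on 45 and 19 reads, and was not called with a pseudocount of 10, by edgeR or by DESeq2.

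Some calls at medium MYC were lost when a single library was left out. BCAN-AS1 fell by 0.58 and BCAN-AS2 by 0.80, and each lost its call with a pseudocount of 0.1, with no filter, with equal library totals and with the replicate block. BCAN-AS2 lost it without any 1 of the 8 medium-MYC libraries. BCAN-AS1 lost it without any 1 of them but DMSO replicate 3, without high-MYC DMSO replicate 2 and by DESeq2. MALT1-AS1 rose by 0.64 and lost its call without DMSO replicate 1 or 2, without IMP1088 replicate 2 or 3, with no filter and with the block. TMEM202-AS1, at 0.56, lost it with the block and without any of DMSO replicates 1 to 3 and IMP1088 replicates 1 to 3, and ADAMTSL4-AS1, at 0.54, without DMSO replicate 2 or IMP1088 replicates 2 or 4, both also with no filter.

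Of the antisense genes, 25 were called with IMP1088 at both MYC levels, 15 higher in both, 9 lower in both and 1, MBNL1-AS1, in opposite directions. The 25 are 9.36% of the antisense genes, and 13.6% of all tested genes were called at both levels (4.76% higher in both and 8.38% lower in both). For 185 antisense genes neither response was called, and 59 were called in none of the 5 comparisons. The matching shares of all tested genes were not counted, so these numbers describe the members only. EPB41L4A-AS1 rose by 0.40 at high MYC and 0.41 at medium MYC, from 426 ± 29.1 to 562 ± 11.6 and from 107 ± 4.88 to 143 ± 14 (SD, n = 4). OIP5-AS1 fell by 0.12 and 0.16, and the first of these calls was lost with quantile normalisation. VPS9D1-AS1 was called at neither level, at -0.14 and -0.11.

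The difference between the 2 responses, high minus medium MYC, was called for 6 antisense genes, 5 positive and 1 negative, which is 2.25% beside 8.63% of all tested genes (3.31% positive and 5.33% negative). At an unadjusted p under 0.05 in limma there were 30. MBNL1-AS1 had the largest difference, at 2.08 (SE 0.28, limma adjusted p = 3.37e-05). At medium MYC it fell from 49, 36, 50.8 and 39.4 to 33.8, 28.8, 29.2 and 23.2, by 0.59, a call that was lost without DMSO replicate 1 or 3, without IMP1088 replicate 2, 3 or 4 and with no filter. The difference itself was called in each fit that held the gene, which the filter at a mean of 100 leaves out.

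USP3-AS1, with a mean of 18.7, falls outside the rule for named genes and was chosen after its values were seen. It measured 24.1, 14.6, 28.7 and 27.9 in DMSO and 30.1, 39.9, 29.7 and 37.4 in IMP1088 at high MYC, and 11.5, 13.7, 10.5 and 10.7 against 3.50, 5.96, 6.27 and 4.03 at medium MYC. The change was 0.54 and not called at high MYC and -1.11 at medium MYC, where the groups did not overlap. Its difference was 1.65 (SE 0.35, limma adjusted p = 0.00347), or 0.9365 with a pseudocount of 10 and 2.485 with quantile normalisation. DUT-AS1 rose at high MYC and stood at -0.04 at medium MYC, a difference of 0.85 (SE 0.20, limma adjusted p = 0.00764). The sense genes MBNL1, USP3 and DUT had no called difference.

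Smaller differences were called for HERPUD2-AS1 at 0.46, THUMPD3-AS1 at 0.29 and SYT9-AS1 at -0.83. THUMPD3-AS1 measured 322, 335, 311 and 361 against 533, 516, 534 and 480 at high MYC and 413, 389, 370 and 409 against 520, 506, 471 and 518 at medium MYC, higher in IMP1088 in every library of both levels. HERPUD2-AS1 lost the call of the difference without high-MYC DMSO replicate 1 or 3, without high-MYC IMP1088 replicate 2, without medium-MYC IMP1088 replicate 4 and by DESeq2. THUMPD3-AS1 lost it without high-MYC DMSO replicate 3, high-MYC IMP1088 replicate 1 or 3, medium-MYC DMSO replicate 1 or 4 or medium-MYC IMP1088 replicate 3. SYT9-AS1 lost it without medium-MYC DMSO replicate 1, and it and THUMPD3-AS1 lost it with the replicate block.

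Under IMP1088, 177 antisense genes differed between medium and high MYC, 77 higher and 100 lower, which is 66.3% beside 77.5% of all tested genes (39.7% higher and 37.8% lower). Quantile normalisation gave 61 higher and 125 lower. The median was -0.10, and 158 genes had no overlap, beside 72.6% of all genes. TRD-AS1 was higher by 5.14 (3.14 with a pseudocount of 10), STARD4-AS1 by 4.33, SORL1-AS1 by 3.78 (2.43 with that pseudocount), TNFRSF14-AS1 by 3.65 and HORMAD2-AS1 by 3.59 (1.89). USP2-AS1 fell by 3.91, DDN-AS1 by 3.20, DBH-AS1 by 3.10 (by 1.96 with that pseudocount), PARD6G-AS1 by 2.42 and C10orf95-AS1 by 2.18. The correlation with the sense change was 0.668 in close pairs and 0.051 in the others. For the response to IMP1088 it was 0.227 in close pairs and 0.218 in the others at high MYC, and 0.240 and 0.194 at medium MYC.

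Antisense genes were also grouped by the kind of their sense gene, using lists of symbols and symbol beginnings, so that a list can hold genes outside its heading, such as TMEM genes among the transporters and MAPKAPK5, a kinase gene. Beside the counts that follow, 38.9% of all tested genes were higher and 37.3% lower at medium MYC (76.2% called), and 10.5% rose and 16.3% fell with IMP1088 at high MYC (26.8% called). Of 17 opposite immune and B cell signalling genes, 6 were higher and 5 lower at medium MYC, the higher ones led by TNFRSF14-AS1 (3.66), ITGB2-AS1 (2.41) and MAP3K14-AS1 (1.44), and 2 rose and 3 fell with IMP1088 at high MYC, so that 64.7% and 29.4% were called. Of 23 opposite transcription factor and chromatin genes, 4 were higher and 11 lower at medium MYC, with GABPB1-AS1 (-1.18), ZNF232-AS1 (-1.42) and ZNF436-AS1 (-0.96) among the lower, with a median of -0.15 and 65.2% called. In that list 7 rose and 0 fell with IMP1088 at high MYC (30.4% called, and 10 of 23 at an unadjusted p under 0.05 in limma), among them ASH1L-AS1 (0.63), ZNF436-AS1 (0.60) and ZNF407-AS1 (0.49).

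Of 24 opposite metabolic enzyme, mitochondrial and transporter genes, 6 were higher and 8 lower at medium MYC, and 3 rose and 2 fell with IMP1088 at high MYC, so that 58.3% and 20.8% were called. STARD4-AS1 (3.69) was among the higher and MAPKAPK5-AS1 (-1.05) among the lower. Of 15 opposite RNA processing, translation and protein turnover genes, 6 were higher and 6 lower, with NOP14-AS1 at 87.3 and 195 counts in the high- and medium-MYC controls and NOP14, a ribosome assembly gene, at 2098 and 1174, and 6 rose and 2 fell with IMP1088, so that 80% and 53.3% were called. Of 10 opposite cell cycle and repair genes, 4 were higher and 3 lower, and 1 rose and 1 fell, so that 70% and 20% were called. The higher ones included USP30-AS1 (3.13) and KIF9-AS1 (2.18), which average under 20 and were chosen after their values were seen. Both entered this list by the symbol beginnings USP and KIF. USP2-AS1, which entered it in the same way, had its lowest change (-3.92). The remaining 178 genes held 54 higher and 52 lower at medium MYC, 59.6% called.

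Factors of nuclear RNA decay and of termination at noncoding genes, which limit how much antisense RNA accumulates, were listed as 43 genes, all of them tested. Between MYC levels 12 were higher and 22 lower, with a median of -0.11, and EXOSC5 (-2.42) and EXOSC2 (-1.10), subunits of the RNA exosome, and the Integrator subunits INTS10 (-1.62) and INTS13 (-1.39) were lowest. That is 79.1% called, beside 76.2% of all tested genes. With IMP1088 at high MYC 4 rose and 1 fell, among them EXOSC6 (0.28) and the catalytic subunit DIS3 (0.19) higher and INTS3 (-0.16) lower, 11.6% called beside 26.8% of all genes. At medium MYC 8 rose and 5 fell, 30.2% called beside 26.3% of all genes. Their part in the antisense changes was not tested.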

How the data were processed

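Per the submitters' processing notes, the tools listed are STAR 2.5.2a, RSEM 1.2.31 and DESeq2 1.16.1 with GRCh38, whose roles are not stated. The authors deposited normalised values, a signal that is never negative, for 58051 Ensembl identifiers in 16 libraries. In each library the values step by what 1 read is worth, which gave back whole reads for 100% of values in each of 16 libraries (within 0.0001 of the value, or of 1 read below that). edgeR on these reads called 3703 genes for IMP1088 at high MYC, beside 3689 by the main test. Symbols were matched for 56948 identifiers and positions taken from GENCODE 29. Comparisons used limma (version 3.58.1, R 4.3.3) with a mean trend on the log2 value after adding 1, over 13765 genes with a mean of at least 10 and 4 group means in 1 fit, two-sided, with Benjamini-Hochberg adjustment over all genes. It was tested on simulated data in which every gene had the same spread setting, and the outcome is not given here. Correlations over pairs carry no p-value. Named genes were up to 8 higher and 8 lower by log2 change with a mean of at least 20 and no overlap (up to 5 each for the difference in response and the MYC comparison under the inhibitor), the 10 most abundant, OIP5-AS1 and VPS9D1-AS1; 1 gene that the rule names is not reported here. The members and lists were chosen with earlier results of these data known. Alternatives were other pseudocounts, filters, scalings and fits, a replicate block, each library left out, and count tests on those reads by edgeR 4.0.16 and by DESeq2 1.42.0. RefSeq starts and subsets of pairs were added after seeing the data.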

Additional observations from a re-analysis of the deposited data

Results flagged for a closer look

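A difference in response between MYC levels was called for 6 antisense genes. The log2 difference, high minus medium MYC, was 2.08 for MBNL1-AS1 (1.49 at high and -0.59 at medium MYC), 1.65 for USP3-AS1 (0.54 and -1.11), 0.85 for DUT-AS1 (0.81 and -0.04), 0.46 for HERPUD2-AS1 (0.77 and 0.31), 0.29 for THUMPD3-AS1 (0.63 and 0.35) and -0.83 for SYT9-AS1 (-0.95 and -0.12).

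In 10 of 184 groups of 4 libraries, 1 library stood apart from the other 3 by its gap over the group's range, where chance alone gives about 1 in 20. EPB41L4A-AS1 was at 383 in high-MYC DMSO replicate 2 (others 437 to 445) and at 545 in high-MYC IMP1088 replicate 2 (others 565 to 570). INTS6-AS1 was at 29.4 in high-MYC DMSO replicate 1 (others 39.1 to 39.7) and at 62.0 in high-MYC IMP1088 replicate 3 (others 35.3 to 39.8). ITGB2-AS1 was at 10.4 in high-MYC IMP1088 replicate 4 (others 5.38 to 6.11) and PARD6G-AS1 at 74.2 in replicate 1 of that group (others 89.8 to 92.5). STARD4-AS1 was at 12.9 in the same replicate 1 (others 3.49 to 4.44). PIK3CD-AS1 was at 91.9 in medium-MYC DMSO replicate 3 (others 76.3 to 77.2). SORL1-AS1 was at 7.73 in high-MYC DMSO replicate 3 (others 1.12 to 1.51), and SREBF2-AS1 at 56.2 in replicate 2 of that group (others 40.7 to 42.5).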

How the results depend on the processing

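With a filter at a mean of 100, which leaves 59 of the 267 antisense genes, the calls were 21 for IMP1088 at high MYC, 17 at medium MYC, 44 between MYC levels in the controls and 50 under IMP1088. Under all other alternatives each count stayed within 1.5 times its value. Leaving out 1 library at a time gave 47 to 68 calls at high MYC, 30 to 42 at medium MYC, 4 to 8 for the difference in response, 150 to 166 between MYC levels in the controls and 165 to 178 under IMP1088. edgeR on the recovered reads gave 60, 44, 7, 165 and 176 in this order and DESeq2 51, 34, 6, 151 and 167. Replicate numbers did not pair the libraries: the correlation of same-numbered deviations ran from -0.154 to 0.0494 between DMSO and IMP1088 and from -0.0989 to 0.239 between MYC levels, and with the number as a replicate block the calls were 60, 34, 4, 157 and 171. Of 132 called values of named genes, 0 changed sign under any alternative. In the fits that each left out 1 library, 22 of the 132 lost their call at least once. Under the other alternatives 22 did so. A pseudocount of 10 moved 18 of the 132 values and quantile normalisation 8 by over 1.5 times. The correlation of close pairs between MYC levels in the controls ran from 0.604 to 0.794 over the alternatives and that of distant pairs from -0.098 to 0.072. The median IMP1088 change at high MYC of genes starting within 1 kb ran from 0.180 to 0.252. Genes with few reads, such as SORL1-AS1 at 11 in the high-MYC controls, limit the size of the largest changes.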

Other observations

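Other classes of noncoding gene were measured in the same fits and are given as values. Of all tested genes, 10.5% rose and 16.3% fell with IMP1088 at high MYC, 11.7% rose and 14.6% fell at medium MYC, and 38.9% were higher and 37.3% lower at medium MYC. Of 159 divergent transcripts, whose symbols end in -DT, 66 rose and 3 fell with IMP1088 at high MYC (41.5% and 1.89%) with a median change of 0.43, and 24 rose and 2 fell at medium MYC (15.1% and 1.26%). Between MYC levels 30 of these were higher and 56 lower (18.9% and 35.2%). Of 23 small nucleolar RNA host genes, with SNHG symbols, 15 rose and 0 fell with IMP1088 at high MYC (65.2% called) and 16 rose and 0 fell at medium MYC (69.6%), and 22 (95.7%) were lower at medium MYC with a median of -1.42. Of 150 intergenic LINC genes, 18 rose and 10 fell at high MYC (12% and 6.67%), 11 rose and 6 fell at medium MYC (7.33% and 4%), and 51 were higher and 56 lower between MYC levels (34% and 37.3%). Of 14 intronic and overlapping transcripts, 0 were called with IMP1088 at either level (2 and 3 at an unadjusted p under 0.05 in limma; 6 were called between MYC levels). Differences between these classes and the antisense genes were not tested.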
